A study of Mus musculus with 10 samples.

Results

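The genes described here encode the machinery that copies DNA, from the loading of the replicative helicase onto origins to the repackaging of the new strands into chromatin. They are 45 genes of 10 complexes or roles, chosen by name, and each is a row of the count table of 29955 genes. Of the 45, 43 passed the filter on low counts and were tested among 12282 genes. The cells are a murine Ph+ acute lymphoblastic leukaemia line, a B-lineage leukaemia driven by the kinase BCR-ABL1, here in its p185 form. The parental line (treatment none) gave 2 libraries, A and B. From it, lines were taken through rising doses of dasatinib, an inhibitor of that kinase, with dose given as a multiple of the IC90, and libraries were made from cells that had outgrown the 1x dose (3 libraries, A to C) and the 16x dose (3 libraries, A to C). Lines carried in parallel with the vehicle DMSO gave 1 library each at the 1x and the 16x step. The main comparisons set the dasatinib libraries against a drug-free class of 4 libraries, the parental pair and both DMSO lines. A DMSO step is a single library of a single line, so the step and the line cannot be told apart. Within the dasatinib lines the 16x dose was also the later step, so dose and time in culture cannot be told apart.

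Replication starts where the origin recognition complex, Cdc6 and Cdt1 load the ring of Mcm2 to Mcm7 onto DNA. Kinases then recruit the GINS complex and further factors, which turns the ring into an active helicase. Polymerase alpha with primase lays down primers, polymerases epsilon and delta extend them with the clamp Pcna, and the fragments of the lagging strand are trimmed and ligated. Transcription of many of these genes is known to be driven by E2F factors in late G1 and S phase, so their RNA in bulk is high in dividing cells. In RNA from a whole culture, fewer cells in S phase and less of the RNA per cell cannot be told apart.

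Promoter windows were read for the members because E2F factors bind short GC-rich sites near the start of many replication genes. A RefSeq window (GRCm38.p6, 250 bases before to 50 bases after an annotated start) was found for 37 of the 45 members, in 42 windows. The letters searched, on both strands, were TTTCCCGC, TTTGGCGC, TTTCGCGC and TTTGCCGC. Of the 37 genes, 14 held a match (37.8%), as did 704 of the 27025 genes in the table (2.6%). Of the 42 windows, 33.3% held one, and of all 32851 windows 2.26%. A match is a description of letters and not of binding. Shown first are the windows of the 4 members with the smallest p-values at 16x, Prim1, Lig1, Pola2 and Pold3. Mcm3 and Mcm6 follow, picked from the members with more than 1 match after their values and matches were seen. Mcm5, Mcm7 and Rfc3 also have 2 matches each and are not shown. Of these, Mcm5 was called lower at 16x against drug-free, and Mcm7 and Rfc3 were not called. The windows shown are written 5′ to 3′ on the strand of the gene, with the matching letters in capitals.
Prim1 (chr10:128014965-128015264, plus strand): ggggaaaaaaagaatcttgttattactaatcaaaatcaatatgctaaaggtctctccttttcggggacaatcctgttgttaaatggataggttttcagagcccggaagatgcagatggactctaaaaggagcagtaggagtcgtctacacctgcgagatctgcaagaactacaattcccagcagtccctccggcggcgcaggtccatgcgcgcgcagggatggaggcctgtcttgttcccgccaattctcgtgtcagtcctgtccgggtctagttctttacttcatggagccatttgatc
Lig1 (chr7:13278576-13278875, plus strand): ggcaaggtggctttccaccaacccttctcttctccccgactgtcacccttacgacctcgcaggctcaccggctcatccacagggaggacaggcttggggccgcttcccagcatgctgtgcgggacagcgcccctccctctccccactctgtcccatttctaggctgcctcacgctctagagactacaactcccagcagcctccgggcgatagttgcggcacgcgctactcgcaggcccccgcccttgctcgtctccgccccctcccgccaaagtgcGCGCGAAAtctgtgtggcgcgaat
Pola2 (chr19:5964157-5964456, minus strand): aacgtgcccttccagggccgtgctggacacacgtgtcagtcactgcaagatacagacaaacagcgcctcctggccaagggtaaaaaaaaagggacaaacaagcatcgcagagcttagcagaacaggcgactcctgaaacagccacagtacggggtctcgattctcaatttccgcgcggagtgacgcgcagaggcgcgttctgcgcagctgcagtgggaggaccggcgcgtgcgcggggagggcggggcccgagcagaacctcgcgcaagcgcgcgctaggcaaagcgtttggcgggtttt
Pold3 (chr7:100121453-100121752, minus strand): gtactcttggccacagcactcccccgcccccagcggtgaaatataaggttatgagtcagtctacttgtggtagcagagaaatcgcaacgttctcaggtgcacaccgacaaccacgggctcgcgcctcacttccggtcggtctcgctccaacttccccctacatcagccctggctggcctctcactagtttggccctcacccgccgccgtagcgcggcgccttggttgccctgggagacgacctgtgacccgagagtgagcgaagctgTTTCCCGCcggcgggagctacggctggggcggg
Mcm3 (chr1:20820263-20820562, minus strand): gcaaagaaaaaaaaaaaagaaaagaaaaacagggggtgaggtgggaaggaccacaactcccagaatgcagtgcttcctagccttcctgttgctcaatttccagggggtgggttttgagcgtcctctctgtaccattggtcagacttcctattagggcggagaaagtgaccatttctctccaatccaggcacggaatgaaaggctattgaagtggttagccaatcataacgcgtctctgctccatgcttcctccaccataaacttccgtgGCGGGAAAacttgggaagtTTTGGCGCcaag
Mcm6 (chr1:128359656-128359955, minus strand): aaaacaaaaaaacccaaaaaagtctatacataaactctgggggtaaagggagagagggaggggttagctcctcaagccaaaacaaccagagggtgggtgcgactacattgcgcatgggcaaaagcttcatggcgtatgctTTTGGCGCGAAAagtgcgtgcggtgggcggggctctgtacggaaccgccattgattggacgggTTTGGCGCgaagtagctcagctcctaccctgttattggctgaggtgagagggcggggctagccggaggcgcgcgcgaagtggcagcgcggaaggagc
The Prim1 and Pola2 windows held none of the 4 strings. Lig1 has 3 annotated starts, and its only match lies 26 bases after the start shown. The Pold3 match begins 17 bases after the start, and those of Mcm3 begin 19 and 38 bases after it. In Mcm6, 2 overlapping matches begin 110 and 106 bases before the start and another 47 bases before it. Among members with a window, 8 of the 18 whose RNA fell at 16x and 4 of the 17 tested members that were not called held a match.

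Total counts per library ranged from 29049760 to 45813092. No pair of replicates was identical. The B-lineage gene Cd79a stood at 498 to 636 CPM (counts scaled to the size of the library) over the 10 libraries, although Ebf1, a factor of early B cells, stood at only 0.0955 to 0.717. Markers of T cells reached at most 0.0633 CPM and Cd4 was at 0. Of the myeloid markers, the neutrophil gene Elane was at 0, and Mpo, Csf1r and Itgam reached at most 0.0274, 0.319 and 0.574. Lyz2, also a myeloid marker, stood at 3.09 to 7.8. The platelet and endothelial gene Pecam1 stood at 46.6 to 59.7. The sum over 62 histone rows was 192 CPM in dasatinib 1x B and 58.5 to 73 in the other libraries.

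RNA of each of the 43 tested genes was found in every library. Per kilobase of exon, Pcna was the highest of the 43 genes, at 402 to 478 CPM per kilobase over the 10 libraries. Rrm2, the smaller subunit of ribonucleotide reductase, followed at 280 to 325 and Mcm7 at 169 to 217. At the other end stood Gins3, at 6.13 to 9.33. The remaining 5 MCM subunits were close to each other, with parental means of 105 (Mcm4) to 129 (Mcm6) CPM per kilobase. Replicates were close, with a median coefficient of variation over the 43 genes of 1.12% in the parental pair, 1.74% at dasatinib 1x and 2.46% at 16x. In the drug-free class, which joins parental and DMSO lines, it was 5.56%.

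Of the members not tested, Orc1, the largest subunit of the origin recognition complex, was listed at 0 in all 10 libraries, and so was a row under its older symbol Orc1l. Cdc6 had 0 to 4 counts per library, 19 in all, and a second row written cdc6 had 11 to 24, 151 in all. These rows were therefore not read as expression levels.

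Of the 43 replication genes tested, 22 fell at the 16x dose against the drug-free class and none rose, where 8.33% of all tested genes were called lower and 7.79% higher. At an unadjusted p under 0.05, 27 were lower and 1 was higher. DESeq2 called 25 lower and none higher. The changes of the 22 ran from -0.10 (Pold1) to -0.38 (Gins3) on the log2 scale, which is a fall by 6.79% to a fall by 23.3%. The median log2 change of all 43 was -0.15, against 0.00 over all genes. All 3 libraries at 16x lay below all 4 drug-free libraries for 25 of the 43 genes (14.0% of all tested genes) and above them for 1, Rfc5 (14.3%).

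**Figure D1:**
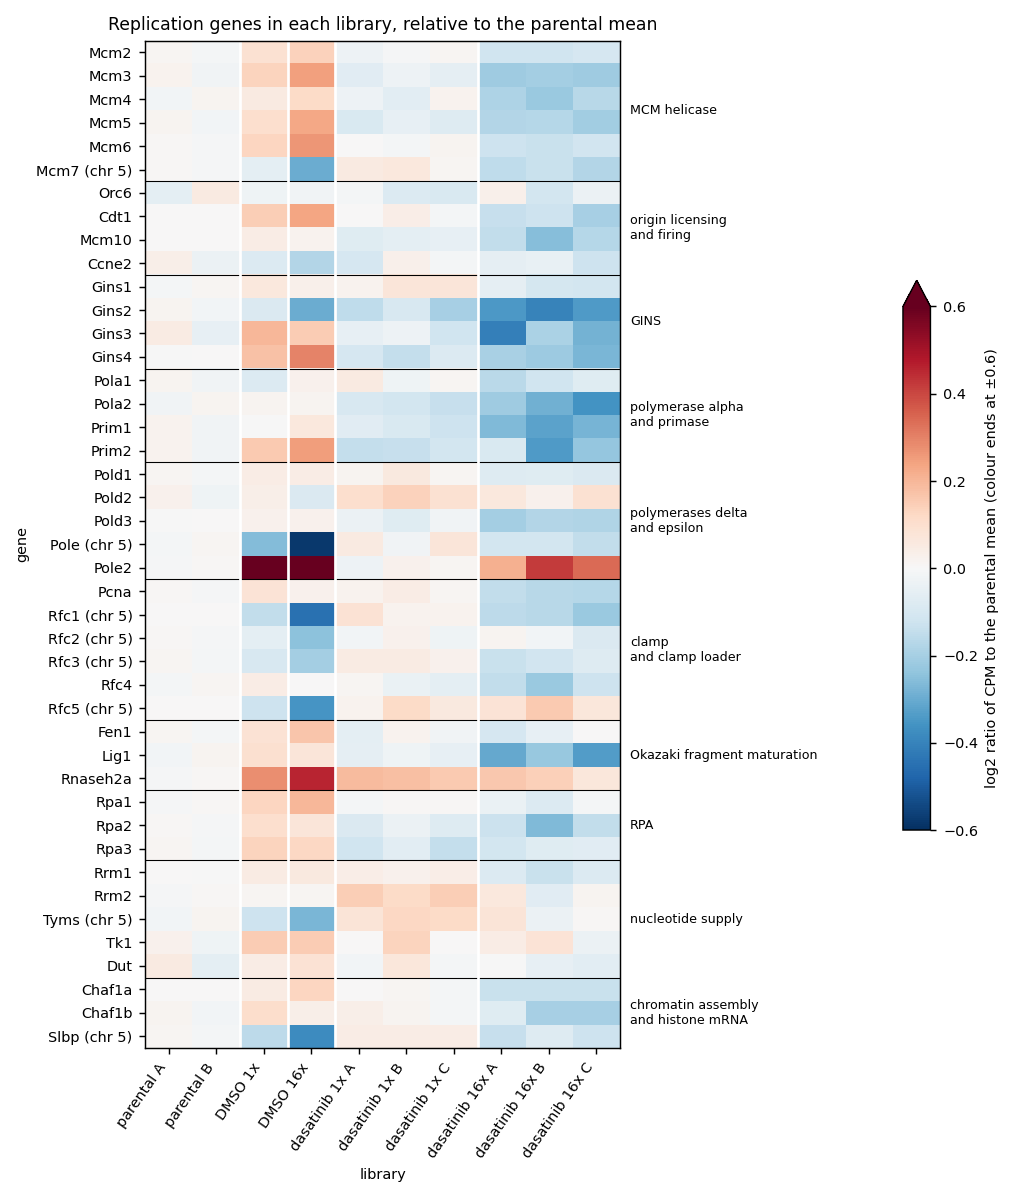
Heatmap of the 43 tested replication genes (rows, grouped by complex) in the 10 libraries (columns), as the log2 ratio of each library's CPM to the mean of the 2 parental libraries, with the colour scale ending at 0.6 in either direction. The columns of dasatinib 16x are mostly blue, and the 8 genes marked as lying on chromosome 5 are blue in the DMSO 16x column, where most others are red.

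Summed over the 43 genes, the level at 16x was 91.6 to 92.9% of the parental mean, against 101% at dasatinib 1x and 103% in both DMSO lines. The sums include Pole2, which stood at 87.3 and 201 CPM in DMSO 1x and 16x, against 44.7 and 45 in the parental pair. By complex, GINS stood lowest at 16x, at 83.5 to 84.4%, followed by polymerase alpha and primase at 85.5 to 88.0%. The MCM helicase stood at 89.5 to 89.7%, and the 3 libraries differed by less than 1% of the parental mean. Nucleotide supply stood highest, at 94.6 to 100.3%, and overlapped the parental libraries. The B-lineage markers summed to 91.5 to 92.4% in the same libraries, and 4 of the 8 were called lower at 16x against drug-free (all genes: 8.33%). The 4 erythroid markers in the table summed to 16.5 to 26.6 CPM at dasatinib 16x, 3.93 to 4.68 at 1x, 4.4 to 4.98 in the parental pair and 11.7 and 34.7 in DMSO 1x and 16x. Nearly all of that was Hbb-b1. The part of either list in the results was not tested.

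**Figure D2:**
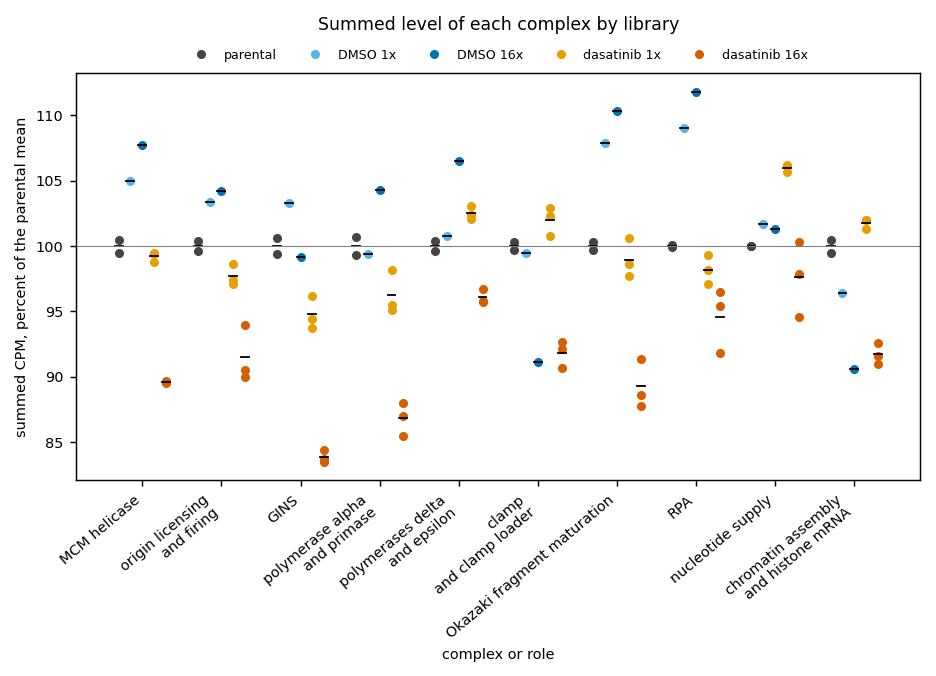
Summed CPM of each complex (x axis) in each library, as a percent of the mean of the parental pair (y axis). Points are libraries, coloured by group, and short lines are group means. At dasatinib 16x (rightmost in each set) GINS lies at 83.5 to 84.4% and the MCM helicase at 89.5 to 89.7%, below every other library.

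In the MCM helicase, the motor that unwinds DNA ahead of the fork, 5 of 6 subunits fell at 16x against drug-free. Mcm4 had the smallest p. It stood at 332, 324 and 336 CPM in dasatinib 16x A, B and C and at 373 and 382 in the parental pair. It stood at 392 and 409 in DMSO 1x and 16x and at 370, 361 and 383 at dasatinib 1x. Every 16x library lay below every other library. Mcm4 fell by 0.23 ± 0.04 (SE, log2) with an adjusted p of 0.00456 by edgeR's quasi-likelihood test. Mcm3 fell by 0.31 ± 0.06 (adjusted p = 0.00729) and Mcm5 by 0.27 ± 0.05 (adjusted p = 0.0107). Mcm2 fell by 0.17 ± 0.04 (adjusted p = 0.0174) and Mcm6 by 0.23 ± 0.06 (adjusted p = 0.031). Mcm7, the subunit not called, had a log2 change of -0.07 ± 0.07 (adjusted p = 0.516), and it lies on chromosome 5.

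Of the 4 tested licensing and firing genes, 2 fell. Mcm10, which helps to activate the helicase, stood at 112, 104 and 110 CPM at 16x and at 124 in both parental libraries. It stood at 128 and 126 in DMSO 1x and 16x and at 118, 119 and 120 at dasatinib 1x. The 16x libraries were the 3 lowest, and Mcm10 fell by 0.21 ± 0.03 (adjusted p = 0.00468). Cdt1, which loads the MCM ring, fell by 0.25 ± 0.06 (adjusted p = 0.0209). The others were flat, with log2 changes of -0.03 for Orc6 and -0.01 for Ccne2, the cyclin E that works with Cdk2.

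GINS joins the MCM ring in the active helicase, and 3 of its 4 subunits fell. Gins3 showed the lowest log2 change of any called member. It stood at 16.6, 19.3 and 18.1 CPM at 16x, against 22.8 and 21.3 in the parental pair and 25.3 and 24.5 in DMSO 1x and 16x. At dasatinib 1x it stood at 21.3, 21.6 and 20.3, level with the lower parental value and above all 3 libraries at 16x. The fall was 23.3%, or -0.38 ± 0.07 on the log2 scale (adjusted p = 0.00945). Gins4 fell by 0.35 ± 0.07 (adjusted p = 0.0122) and Gins2 by 0.27 ± 0.07 (adjusted p = 0.0283). Gins2 was also low in DMSO 16x, at 54.7 CPM, close to the 53, 50.9 and 53.2 at dasatinib 16x. It stood at 63.3 in DMSO 1x and at 68 and 66.6 in the parental pair. Gins1 had a log2 change of -0.11 ± 0.04 and was not called (adjusted p = 0.0623).

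Polymerase alpha and primase make the primers for both strands, and 3 of the 4 subunits fell. Prim1, the catalytic subunit of primase, stood at 63.3, 60.9 and 62.6 CPM at 16x and at 77.2 and 74.8 in the parental pair. It stood at 75.9 and 79.5 in DMSO 1x and 16x and at 72.6, 71.3 and 69.7 at dasatinib 1x. The 3 groups did not overlap, with 1x between the drug-free class and 16x. The fall at 16x was 18.9% (log2 change -0.30 ± 0.03, adjusted p = 0.000779), the smallest p of the 43 genes. Pola2, the accessory subunit of polymerase alpha, fell by 0.29 ± 0.04 (adjusted p = 0.00137). Prim2, the large subunit of primase, fell by 0.32 ± 0.08 (adjusted p = 0.0191). Pola1, the catalytic subunit, had a log2 change of -0.11 ± 0.04 (adjusted p = 0.0883).

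Among the subunits of polymerases delta and epsilon, which extend the strands, 2 of 5 fell, both of polymerase delta. Pold3, an accessory subunit, stood at 86.1, 88.0 and 87.5 CPM at 16x, at 99.1 and 99.5 in the parental pair and at 101 in both DMSO lines. At dasatinib 1x it stood at 96.8, 94.5 and 97.7. All 3 groups were apart, and Pold3 fell by 0.20 ± 0.03 (adjusted p = 0.0022). Pold1, the catalytic subunit, stood at 282, 283 and 280 CPM at 16x and at 300 and 295 in the parental pair. It stood at 307 in both DMSO lines and at 301, 310 and 300 at dasatinib 1x. The gap between 16x and the lowest other library was narrow, and the fall was 0.10 ± 0.03 (adjusted p = 0.0358). Pold2 had a log2 change of 0.07 ± 0.04 and was not called. Pole and Pole2, of polymerase epsilon, were not called and are described with the DMSO lines.

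The clamp Pcna holds polymerases on the template and the Rfc complex loads it. Pcna stood at 620, 612 and 610 CPM at 16x and at 690 and 683 in the parental pair. It stood at 726 and 700 in DMSO 1x and 16x and at 697, 708 and 692 at dasatinib 1x. The 16x libraries lay apart below all others, and the 1x libraries lay among the drug-free ones. Pcna fell by 12.3% at 16x (log2 change -0.19 ± 0.03, adjusted p = 0.00401). Rfc4 fell by 0.18 ± 0.04 (adjusted p = 0.0123), and it is the only clamp loader subunit that is not on chromosome 5. The other 4 had log2 changes of -0.05 (Rfc1) to 0.21 (Rfc5). Rfc5 had the highest log2 change of all uncalled members, 0.21 ± 0.08 (adjusted p = 0.0913).

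Of the 3 genes of Okazaki fragment maturation, Lig1 fell. This ligase seals the nicks between lagging strand fragments. It stood at 222, 235 and 218 CPM at 16x, at 272 and 278 in the parental pair, and at 294 and 289 in DMSO 1x and 16x. At dasatinib 1x it stood at 265, 270 and 266, just below the drug-free libraries and well above 16x. The fall was 20.6% (log2 change -0.33 ± 0.04, adjusted p = 0.000813). Fen1, the flap nuclease, had a log2 change of -0.11 ± 0.05 (adjusted p = 0.131), and Rnaseh2a, the catalytic subunit of RNase H2, one of -0.07 ± 0.10 (adjusted p = 0.68).

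RPA covers single-stranded DNA at the fork, and 1 of its 3 subunits fell. Rpa2 stood at 96.4, 87.8 and 95.3 CPM at 16x and at 106 and 105 in the parental pair. It stood at 113 and 111 in DMSO 1x and 16x and at 99.3, 103 and 100 at dasatinib 1x. The 16x libraries were again the 3 lowest, dasatinib 16x B by a margin, and Rpa2 fell by 0.22 ± 0.04 (adjusted p = 0.00944). Rpa1 and Rpa3 had log2 changes of -0.13 and -0.15 (adjusted p = 0.113 and 0.0543).

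Of the genes of nucleotide supply, 1 of 5 fell. Rrm1, the large subunit of ribonucleotide reductase, stood at 597, 576 and 597 CPM at 16x and at 633 and 632 in the parental pair. It stood at 654 and 659 in DMSO 1x and 16x and at 651, 644 and 651 at dasatinib 1x. The 16x libraries lay below the rest, and the fall was 8.48% (log2 change -0.13 ± 0.03, adjusted p = 0.0183). Its partner Rrm2 had a log2 change of 0.00 ± 0.03, Tk1 of -0.05, Dut of -0.07 and Tyms, which makes thymidylate and lies on chromosome 5, of 0.11. None of these 4 was called.

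In the group of chromatin assembly and histone mRNA, both subunits of the chromatin assembly factor CAF-1 fell. Chaf1a stood at 136 CPM in all 3 libraries at 16x and at 149 in both parental libraries. It stood at 154 and 163 in DMSO 1x and 16x and at 149, 150 and 148 at dasatinib 1x. It fell by 0.18 ± 0.04 (adjusted p = 0.0115), with the 16x libraries below all others. Chaf1b fell by 0.19 ± 0.04 (adjusted p = 0.0191). Slbp, which binds the stem-loop of histone mRNA, had a log2 change of 0.01 ± 0.08 (adjusted p = 0.929).

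**Figure D3:**
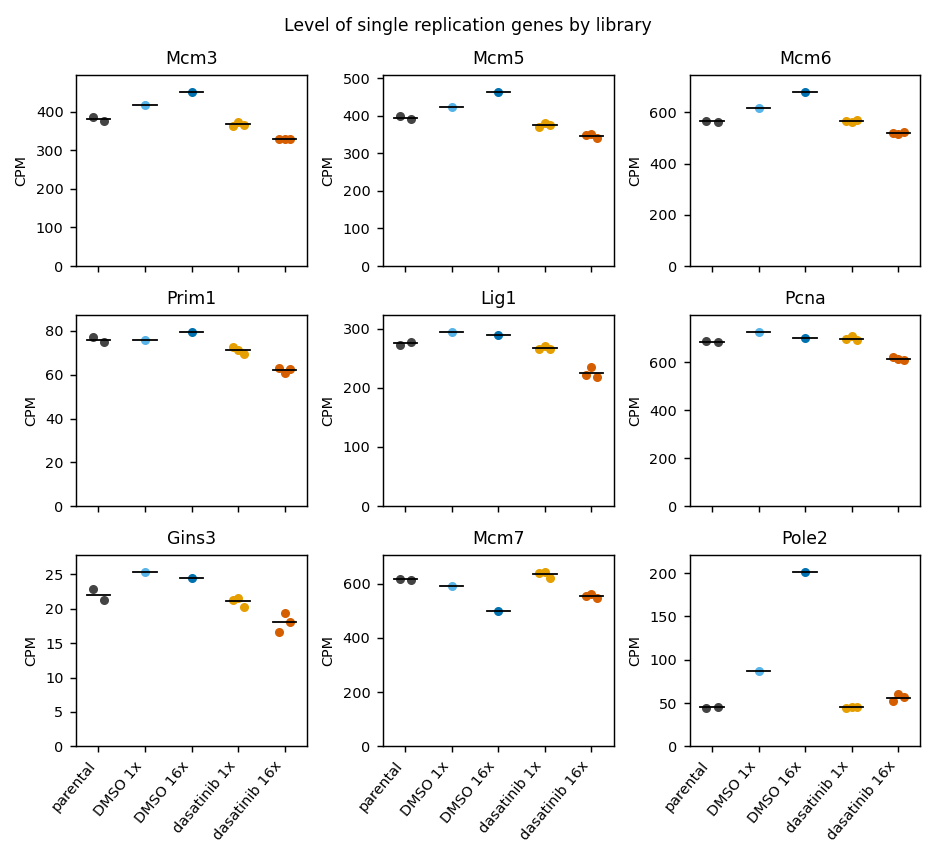
Level in CPM (y axis, from 0) of 9 replication genes in each library, by group. Points are libraries and lines are group means. For the genes in the upper and middle rows the points at dasatinib 16x lie below all other groups, while Mcm7 and Pole2 have their extreme values in DMSO 16x, at 501 and 201 CPM.

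Single libraries moved the count of 22 at 16x. With dasatinib 16x C left out it was 12, and it was 15 without B, 16 without A and 17 without DMSO 1x, while it was 24 without DMSO 16x. The 1023 lower calls over all genes moved too, to 496 without dasatinib 16x C, 533 without A, 663 without DMSO 1x and 1344 without DMSO 16x. The 12 genes that held their call under each left-out library and each other setting were Chaf1a, Gins3, Lig1, Mcm10, Mcm3, Mcm4, Pcna, Pola2, Pold3, Prim1, Rfc4 and Rpa2. Mcm5 and Gins4 lost it only without dasatinib 16x C (adjusted p = 0.0513 and 0.0565), and Chaf1b without dasatinib 16x B or C (0.0652 and 0.0812). Mcm2 and Rrm1 lost it without any 1 of the 3 libraries at 16x, at 0.0555 to 0.0682 and at 0.0544 to 0.0649. Cdt1 lost it without DMSO 1x, dasatinib 16x A or C (0.0548 to 0.0909), and Prim2 without DMSO 1x, dasatinib 16x B or C (0.051 to 0.0723). Gins2 lost it without DMSO 1x or any 1 parental or dasatinib 16x library (0.0566 to 0.0821). Mcm6 lost it without DMSO 1x or any 1 dasatinib library (0.0547 to 0.0976), and Pold1 also without parental A (0.0543 to 0.119). Without DMSO 16x, Rfc5 was called higher (log2 change 0.14, adjusted p = 0.0419), and Mcm7 and Rfc1 were called lower.

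Against the 2 DMSO libraries, 28 of the 43 genes were lower at 16x and 6 higher (all genes: 17.1% and 19.6%), and at 1x 19 were lower and 10 higher (16.3% and 17.5%). Against the parental pair alone, 27 of the 43 genes were lower at 16x and 1 was higher (all genes: 12.8% and 13.7%). Pold1 was not called there (log2 change -0.08 ± 0.03, adjusted p = 0.0709), and 6 genes were called lower that had not been so against the whole drug-free class, Mcm7, Pola1, Pole, Rfc1, Rfc3 and Slbp. Pola1 stood at 171, 176 and 182 CPM at 16x, at 194 and 189 in the parental pair, at 181 and 195 in DMSO 1x and 16x, and at 199, 188 and 193 at dasatinib 1x. The value of DMSO 1x lay inside the range at 16x, and the change against parental was -0.12 ± 0.04 (adjusted p = 0.0334). The remaining 5 lie on chromosome 5 and had their lowest value in DMSO 16x.

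Chromosome 5 holds 8 of the tested replication genes, Mcm7, Pole, Rfc1, Rfc2, Rfc3, Rfc5, Tyms and Slbp, and these went a different way in the DMSO lines. In DMSO 16x against parental, all 8 were called lower, with a median log2 change of -0.33. Of the 35 members on other chromosomes, 12 were called higher and 1, Gins2, lower, with a median of 0.08. Over all genes, 16.2% were called lower and 14.7% higher. The other genes of chromosome 5 showed the same direction, with 508 of 728 called lower and a median of -0.48, against 1392 of 10553 on the other chromosomes. The part of the chromosome as a whole in these values was not tested.

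Mcm7 stood at 501 CPM in DMSO 16x and at 592 in DMSO 1x, against 619 and 613 in the parental pair. It stood at 640, 643 and 621 at dasatinib 1x and at 554, 562 and 546 at 16x. DMSO 16x was thus the lowest library, and the 16x libraries lay between it and the parental pair. Against parental, Mcm7 was lower in DMSO 16x by a log2 change of -0.30 ± 0.04 (adjusted p = 0.000202) and lower at dasatinib 16x by -0.15 ± 0.03 (adjusted p = 0.0036).

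Pole, the catalytic subunit of polymerase epsilon, had the lowest log2 change of the 8 in DMSO 16x. It stood at 202 CPM in DMSO 16x and 252 in DMSO 1x, against 300 and 304 in the parental pair, 313, 298 and 318 at dasatinib 1x and 280, 280 and 273 at 16x. Both DMSO lines lay below all other libraries. The change against parental was -0.58 ± 0.05 in DMSO 16x (adjusted p = 3.12e-06) and -0.12 ± 0.03 at dasatinib 16x (adjusted p = 0.0212).

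The clamp loader subunits Rfc1 and Rfc3 were also lowest in DMSO 16x. Rfc1 stood at 209 and 257 CPM in DMSO 16x and 1x, at 285 in both parental libraries, at 303, 289 and 289 at dasatinib 1x and at 256, 254 and 244 at 16x. Rfc3 stood at 70.7 and 76.4 in DMSO 16x and 1x, at 82.2 and 80.9 in the parental pair, at 84.5, 84.4 and 82.9 at dasatinib 1x and at 74.3, 75.4 and 77.2 at 16x. DMSO 1x lay just above the dasatinib 16x libraries for Rfc1 and within their range for Rfc3. At dasatinib 16x against parental the changes were -0.18 ± 0.03 for Rfc1 (adjusted p = 0.00205) and -0.11 ± 0.04 for Rfc3 (adjusted p = 0.0413). Slbp stood at 196 and 229 CPM in DMSO 16x and 1x, at 257 and 253 in the parental pair, at 263 in all 3 libraries of dasatinib 1x and at 232, 242 and 234 at 16x. Its change at dasatinib 16x against parental was -0.11 ± 0.03 (adjusted p = 0.0191).

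Summed, the 8 genes on chromosome 5 stood at 77.7% of the parental mean in DMSO 16x, 91.7% in DMSO 1x, 102.5 to 103.7% at dasatinib 1x and 91.5 to 94.0% at 16x. The 35 others stood at 109.9%, 105.7%, 100 to 100.6% and 91.0 to 92.7%. The 35 include Pole2, which stood at 201 and 87.3 CPM in DMSO 16x and 1x, against 44.7 and 45 in the parental pair. At dasatinib 16x both sets therefore lay below parental to a like extent, and in the DMSO lines they lay on opposite sides. Against parental, 5 of the 8 and 22 of the 35 were called lower at dasatinib 16x. The other genes of chromosome 5 went the opposite way there, with 216 of 728 called higher and 56 lower. With the genes of chromosome 5 left out of the whole analysis, an alternative added after seeing the data, the same 22 genes were called at 16x against drug-free. None of these 22 lies on chromosome 5, so their calls could change only through the scaling, the shared spread and the adjustment.

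**Figure D4:**
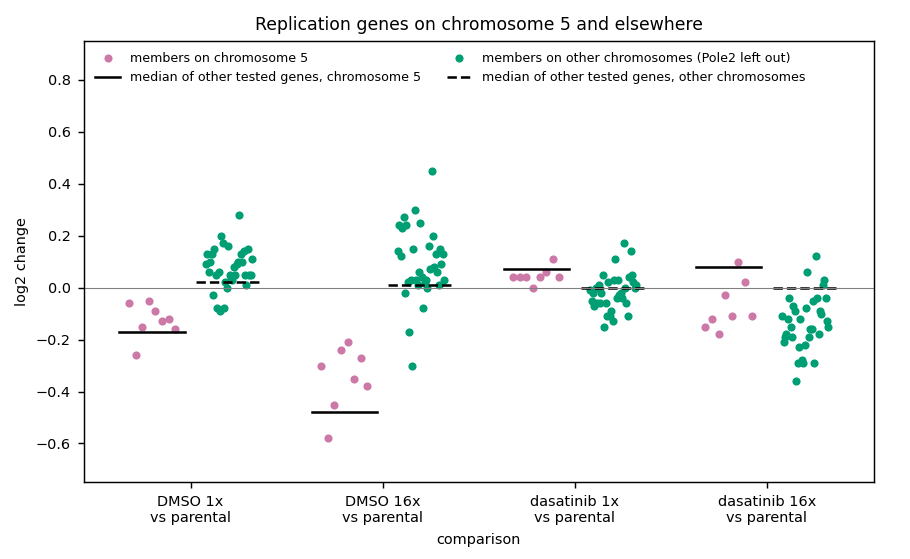
Log2 change against the parental pair (y axis) of the replication genes on chromosome 5 and elsewhere, in 4 groups of lines (x axis). Points are genes, lines are medians of the other tested genes of the same chromosomes, and Pole2 is left out for scale. In DMSO 16x all 8 genes on chromosome 5 lie below 0, and at dasatinib 16x most genes of both sets do.

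The genes that rose in DMSO 16x against parental included Rnaseh2a, by 0.45 ± 0.06 (adjusted p = 0.000121), and 4 subunits of the helicase. Of these, Mcm6 had the smallest p, at a log2 change of 0.27 ± 0.04 (adjusted p = 0.000209). In the other groups the member with the smallest p was Cdt1 (0.24 ± 0.05, adjusted p = 0.00216), Gins2 (-0.30 ± 0.06, 0.00261), Prim2 (0.25 ± 0.08, 0.0362), Rpa1 (0.20 ± 0.04, 0.00313), Rfc1 (-0.45 ± 0.05, 1.89e-05), Tyms (-0.27 ± 0.05, 0.00174) or Slbp (-0.38 ± 0.04, 3.01e-05). Without parental A or without parental B, the calls of Prim2, Mcm2, Chaf1a and Fen1 were lost, with adjusted p of 0.0595 to 0.141. In DMSO 1x, 2 genes were called higher and 2 lower (all genes: 3.31% and 2.87%). Pole2 rose by 0.96 ± 0.07 (adjusted p = 4.01e-05) and Rnaseh2a by 0.28 ± 0.06 (0.0206). Pole fell by 0.26 ± 0.05 (0.00762) and Slbp by 0.16 ± 0.04 (0.0467). Without either parental library, the calls of Rnaseh2a, Pole and Slbp were lost (adjusted p of 0.0587 to 0.21). That of Slbp was also lost without any 1 library of dasatinib 1x or without dasatinib 16x C (0.0504 to 0.0902).

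Pole2, the accessory subunit of polymerase epsilon, stood apart from the other members. It stood at 44.7 and 45 CPM in the parental pair and at 87.3 and 201 in DMSO 1x and 16x. It stood at 43.9, 45.6 and 45.2 at dasatinib 1x and at 52.0, 59.9 and 56.7 at 16x. Both DMSO lines were far above all other libraries, and the 16x libraries lay above the parental pair without overlap. The log2 change was 2.16 ± 0.07 in DMSO 16x against parental (adjusted p = 1.78e-09) and 0.32 ± 0.06 at dasatinib 16x against parental (adjusted p = 0.00132). Against the mixed drug-free class it was -0.75 ± 0.47 and was not called (adjusted p = 0.318). The sign of the change at dasatinib 16x thus depended on which drug-free lines were the reference. Against DMSO 16x, Pole2 was lower at dasatinib 16x by -1.84 ± 0.06 (adjusted p = 2.27e-09).

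Neighbours of Pole2 on chromosome 12 also differed in DMSO 16x. Of the 10 tested genes nearest to it, 5 on either side, 6 were called higher against parental (all genes: 14.7%). Klhdc2 stood at 168 CPM in DMSO 16x and 56.7 in DMSO 1x, against 29.7 and 28.7 in the parental pair (log2 change 2.52 ± 0.27, adjusted p = 0.00124). It stood at 42.2, 43.9 and 37.9 at dasatinib 1x and at 98.5, 110 and 68.0 at 16x, so its libraries at both dasatinib doses lay above the parental pair. The other 5 called genes, 9330151L19Rik, Klhdc1, Mgat2, Gm71 and Sdccag1, had log2 changes of 0.29 to 1.06. Arf6, Rps29, C79407 and Ppil5 were not called. Reads of overlapping neighbours cannot be told apart, since no source used here says whether the counting used strand.

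**Figure D5:**
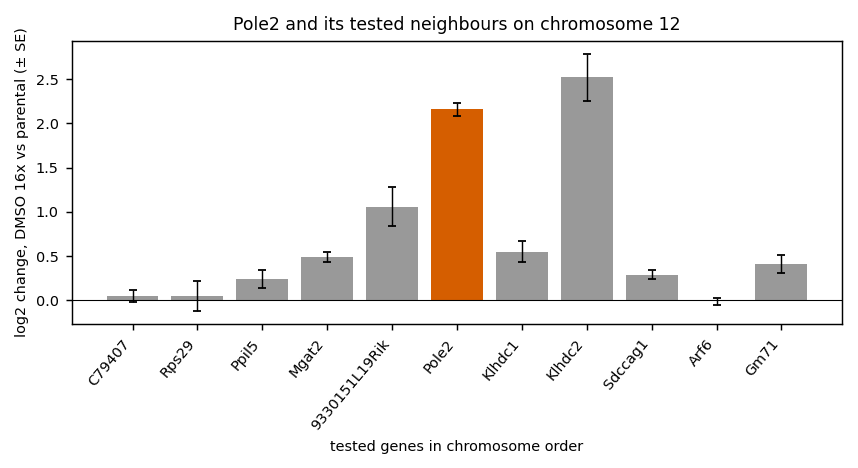
Log2 change in DMSO 16x against the parental pair (y axis, bars from 0, with the SE of the fit as error bars) of Pole2 and the 5 nearest tested genes on either side, in their order on chromosome 12 (x axis). Pole2 and Klhdc2 stand at 2.16 and 2.52, and the genes between and around them are lower.

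At the 1x dose no replication gene was called against the drug-free class by edgeR (all genes: 1.14% lower and 0.822% higher). At an unadjusted p under 0.05, 9 were lower and 5 higher, and DESeq2 called 2 in each direction. The member with the smallest p was Rrm2, which stood at 712, 695 and 711 CPM at 1x against 638 to 647 in the 4 drug-free libraries (log2 change 0.13 ± 0.03, adjusted p = 0.0892). The groups did not overlap. Over the 43 genes, 11 lay below all drug-free libraries at 1x and 8 above them (all genes: 11.0% and 12.5%). Against the parental pair alone, 1 gene, Rnaseh2a, rose (0.17 ± 0.05, adjusted p = 0.0491) and none was lower, where 2.88% of all genes were called in each direction, and 5 were lower and 4 higher at an unadjusted p under 0.05. DESeq2 was not run on that comparison.

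Between the doses, 4 of the 43 genes were lower at 16x than at 1x and none was higher (all genes: 0.928% lower and 1.21% higher). These were Prim1, Pold3, Pcna and Lig1. Prim1 fell by 0.19 ± 0.04 (log2, adjusted p = 0.0307) and Pold3 by 0.14 ± 0.03 (log2, adjusted p = 0.0421). Pcna fell by 0.19 ± 0.03 (log2, adjusted p = 0.0215) and Lig1 by 0.25 ± 0.04 (log2, adjusted p = 0.0184). Each of the 4 calls was lost without any 1 library of dasatinib 1x or without dasatinib 16x A or C, and all but that of Lig1 also without dasatinib 16x B, with adjusted p of 0.0537 to 0.206 over all lost calls in this comparison. Those of Prim1 and Pold3 were lost without DMSO 1x or parental A too, and that of Pold3 without parental B. At 16x, 30 of the 43 genes lay below all 3 libraries at 1x and 1, Pole2, above them (all genes: 15.5% and 15.1%). With the spread estimated within the 5 groups instead of the 3 classes, 27 were called lower and 1, Pole2, higher, and DESeq2 called 15 lower and none higher. At an unadjusted p under 0.05 in the fit of 3 classes, 23 were lower and none was higher.

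Each dose was also set against the DMSO line of the same step. At 1x, 5 of the 43 genes were higher than in DMSO 1x and 8 lower (all genes: 6.86% and 6.66%). Those higher all lie on chromosome 5. By complex, the members with the smallest p were Mcm3 (log2 change -0.19 ± 0.04, adjusted p = 0.0057), Gins4 (-0.28 ± 0.06, 0.0116), Prim2 (-0.29 ± 0.08, 0.0275), Pole2 (-0.96 ± 0.07, 2.97e-06), Rfc1 (0.19 ± 0.04, 0.0136), Rpa3 (-0.24 ± 0.06, 0.0152), Tyms (0.23 ± 0.05, 0.00874) and Slbp (0.20 ± 0.04, 0.00595). The call of Prim2 was lost without any 1 library of dasatinib 1x or parental (0.0512 to 0.0674). In the groups with no call it was Cdt1 (-0.14 ± 0.05, 0.0637) and Lig1 (-0.14 ± 0.05, 0.0659).

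At 16x, 8 genes were higher than in DMSO 16x and 27 lower (all genes: 18.9% and 16.8%). Of the 8, 7 lie on chromosome 5, and the other was Pold2 (0.14 ± 0.04, adjusted p = 0.0229). By complex, the smallest p belonged to Mcm3 (-0.46 ± 0.04, 1.67e-06), Cdt1 (-0.39 ± 0.04, 2.89e-05), Gins4 (-0.53 ± 0.06, 3.32e-05), Prim1 (-0.35 ± 0.05, 0.00014), Pole2 (-1.84 ± 0.06), Rfc5 (0.45 ± 0.05, 2.48e-05), Lig1 (-0.36 ± 0.04, 5.21e-05), Rpa1 (-0.24 ± 0.04, 0.000421), Tyms (0.29 ± 0.05, 0.000623) and Chaf1a (-0.26 ± 0.04, 0.000162). These comparisons share their control with the DMSO comparisons above, and each rests on 1 DMSO library.

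The change from 1x to 16x was then compared between the dasatinib and the DMSO lines in 1 model with an interaction term. For 9 of the 43 genes it was lower under dasatinib than under DMSO and for 1, Rfc5, higher (all genes: 1.37% and 5.37%). The 9 were Pole2 (log2 difference -0.88 ± 0.09, adjusted p = 0.000336), the helicase subunits Mcm3, Mcm4, Mcm5 and Mcm6 (-0.23 to -0.27), Cdt1, Prim1 and Pola1 (-0.25 to -0.26) and Chaf1a (-0.22). For Mcm6 the difference was -0.26 ± 0.05 (adjusted p = 0.0093). Mcm6 stood at 618 CPM in DMSO 1x and 680 in DMSO 16x, while it stood at 566, 562 and 572 at dasatinib 1x and 520, 516 and 522 at 16x. Its level was thus higher at the later step under DMSO and lower under dasatinib. Leaving out dasatinib 1x A or C, parental A or parental B left 4 lower and none higher. Pole2, Mcm3, Mcm5 and Mcm6 kept their calls there, and the others lost theirs at adjusted p of 0.0605 to 0.105. Cdt1 and Prim1 also lost theirs without dasatinib 1x B (0.0683 and 0.0761) or 16x C (0.0504 and 0.056).

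Further genes of the same pathways were read from lists. Of 43 other tested genes of replication, 16 fell at 16x against drug-free and 1 rose (all genes: 8.33% lower and 7.79% higher). Uhrf1, which reads hemimethylated DNA behind the fork, fell by 0.32 ± 0.04 (adjusted p = 0.001) and Supt16h, a subunit of the histone chaperone FACT, by 0.22 ± 0.03 (0.00159). Orc5, a subunit of the origin recognition complex, rose by 0.30 ± 0.07 (0.0202). It lies on chromosome 5 and was lower in the DMSO lines, at 56.4 and 50 CPM in DMSO 1x and 16x. Its mean was 61.8 in the parental pair and 67.2 and 70.8 at dasatinib 1x and 16x. The median log2 change of the 43 genes was -0.12. Of 24 genes of the E2F family and the G1/S switch, 8 fell (33.3%) and 3 rose (12.5%), with a median of -0.09. Tfdp2, a dimer partner of E2F factors, fell by 0.90 ± 0.11 (0.00135) and E2f2 by 0.37 ± 0.05 (0.00181). The inhibitor of cyclin-dependent kinases Cdkn1a rose by 0.85 ± 0.15 (0.00629) and E2f8, a repressor of the family, by 0.20 ± 0.04 (0.00788). Cdkn1a was also higher in the DMSO lines, at 53.8 and 68.4 CPM in DMSO 1x and 16x, against a parental mean of 44.1. Its means at dasatinib 1x and 16x were 70.1 and 95.2. Of 20 genes of G2 and mitosis, 10 fell and none rose, with a median of -0.14. Nusap1, of the spindle, fell by 0.33 ± 0.05 (0.0045) and the checkpoint kinase Bub1b by 0.19 ± 0.03 (0.00476).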

How the data were processed

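RNA was sequenced from 10 libraries, and the gene counts deposited by the authors were used as they stood. Per the submitters' processing notes, the tools were CASAVA 1.7.0, Trimmomatic 0.33, TopHat2 2.0.12, BWA 0.7.10, SAMtools, HTSeq 0.6.1 and DESeq, and the build was mm9. Whether the counting used strand is not stated, so antisense or overlapping genes cannot be told apart, nor can near-identical copies. Deposited values other than counts were not used here.

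Genes were kept by filterByExpr of edgeR 4.0.16 (minimum count 10, on 3 classes), scaled by TMM and tested with the robust quasi-likelihood test in R 4.3.3, with Benjamini-Hochberg adjustment over all 12282 tested genes at 0.05. A log2 change is given with its standard error. The 3 comparisons of dasatinib doses and the drug-free class came from a fit of 3 classes (biological coefficient of variation 15.3%, 7 residual degrees of freedom). Comparisons with a single DMSO library or the parental pair came from a fit of 5 groups (7.27%, 5 degrees of freedom), in which a lone library is assumed to vary like the replicated groups. CPM were computed on the TMM-effective library sizes. The procedure was tested on simulated data. The labels call the dasatinib libraries biological replicates, and nothing says that libraries came from separate cultures, so the spread behind the p-values is that between libraries and may be technical.

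Lengths came from GENCODE vM21 and chromosomes from a RefSeq table of GRCm38.p6, which matched 11324 of the tested genes by symbol. Promoter sequences came from RefSeq on that build. The members and the lists were chosen with earlier results of these data known. Genes were named by rule: every called member at 16x and in comparisons with at most 10 called members, otherwise the member of each complex with the smallest p, and of the other lists the 2 called genes with the smallest p in each direction. Alternatives were DESeq2 1.42.0, limma-voom (limma 3.58.1), RLE scaling, testing without a filter, other reference libraries, a replicate block, leaving out each library and, added after seeing the data, leaving out chromosome 5.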

Additional observations from a re-analysis of the deposited data

Results flagged for a closer look

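Pola2 in the drug-free class had 1 library apart from the others. Parental A stood at 114 CPM and the other 3 libraries at 117, a gap of 0.841 of the whole range, where 0.829 is the 95% critical value for 4 samples. It was the only such library among the 43 genes, and chance gives about 5% of groups.

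The change from the 1x to the 16x step differed between the dasatinib and DMSO lines, by an interaction term in edgeR, for 10 replication genes. It was lower under dasatinib for Mcm3 (log2 difference -0.27 ± 0.05, adjusted p = 0.01), Mcm4 (-0.23 ± 0.06, 0.0497), Mcm5 (-0.25 ± 0.05, 0.0177), Mcm6 (-0.26 ± 0.05, 0.0093), Cdt1 (-0.25 ± 0.06, 0.0384), Pola1 (-0.25 ± 0.07, 0.0494), Prim1 (-0.26 ± 0.07, 0.049), Pole2 (-0.88 ± 0.09, 0.000336) and Chaf1a (-0.22 ± 0.05, 0.0303), and higher for Rfc5 (0.26 ± 0.07, 0.0455). Each DMSO step is 1 library, so its error was taken from the replicated groups.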

How the results depend on the processing

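At 16x against drug-free, all 22 lower genes kept their call under RLE scaling and 21 with no filter, and the count was 12 to 24 with 1 library left out (0 to 1 higher). Counts of higher genes at 16x against drug-free were 1 with parental alone, 6 with DMSO alone and 3 with the mean of 5 groups. Pole2 at 16x reversed, to 0.32 against parental and 0.32 and 0.33 with parental and dasatinib libraries only (with and without the replicate block), and at 1x to 0.00, 0.00 and 0.01. At 1x against drug-free, DESeq2 called 2 lower and 2 higher, parental alone gave 1 higher, DMSO alone 19 lower and 10 higher, the mean of 5 groups 15 and 10, and the libraries without DMSO, with no block, 2 higher. At 16x against 1x, the 4 lower genes became 2 with no filter, 15 by DESeq2, 27 (and 1 higher) in the fit of 5 groups, and 22 (and 1 higher) in the dasatinib libraries alone. Leaving out 1 library gave 0 to 13. Whether libraries with the same replicate letter belong together is not stated, and the main comparisons had no term for the letter. Deviations of same-letter libraries of the 2 doses correlated at 0.0273 to 0.0647, each 1x library highest with its own letter. Those of different letters correlated at -0.0525 to 0.00857. With a replicate block, 15 genes were lower and 1 higher at 16x against 1x, and 21 lower and 1 higher against parental. DMSO 1x against parental gave 1 lower by limma-voom, and 0 to 3 lower and 1 to 6 higher with a library left out. Dasatinib 1x against DMSO 1x gave 5 lower by DESeq2 and 5 to 12 with a library left out. The step difference gave 0 higher by DESeq2, 5 lower and 0 higher by limma-voom, and 4 to 10 lower and 0 to 1 higher with a library left out. The causes were not tested. Over all genes, the 1023 called lower and 957 higher at 16x became 1569 and 1683 with parental alone, 2105 and 2413 with DMSO alone, and 2061 and 2481 with the mean of 5 groups, and 1751 were higher in the libraries without DMSO. At 1x the 140 and 101 became 506 and 347 by DESeq2, 78 lower by limma-voom, 354 and 354, 2002 and 2147, and 1571 and 1878 with those references, and 329 and 390 without DMSO. Between doses the 114 and 148 became 384 and 421 by DESeq2, 775 and 894 in 5 groups, and 539 and 683 in the dasatinib libraries. With 1 library left out, the lower and higher calls over all genes were 496 to 1344 and 509 to 1421 at 16x against drug-free, 9 to 261 and 8 to 255 at 1x, 22 to 458 and 19 to 520 between doses, 34 to 698 and 76 to 712 in DMSO 1x, 1438 to 2269 and 1144 to 2272 in DMSO 16x against parental, and 84 to 355 and 447 to 893 for the step difference. The shares over all genes rest on these counts. No replication gene with a change under 0.1 in size (log2) was called at 16x against drug-free, and Orc1 and Cdc6 were too low to test.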

Other observations

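Of 43 further tested genes of replication that are not among the 45, 5 rose in DMSO 16x against parental and 6 fell, shares of 11.6% and 14% that lie below those over all genes (14.7% and 16.2%). Samhd1, which breaks down deoxynucleoside triphosphates, had a mean of 26.7 CPM in the parental pair, 53.1 in DMSO 1x and 103 in DMSO 16x (log2 change 1.95 ± 0.13, adjusted p = 4.52e-06 in edgeR), against 21.8 and 32.5 at dasatinib 1x and 16x. Pold4, the small subunit of polymerase delta, stood at 53, 68 and 85.7 in the same drug-free order (0.69 ± 0.07, 1.4e-05). Dck, which salvages deoxycytidine, stood at 435, 360 and 267 (-0.71 ± 0.06, 3.3e-06), and Cdc7, the kinase that fires origins, at 99.2, 75.9 and 62.8 (-0.66 ± 0.06, 3.86e-06). Of the 6 that fell, Cdc7, Dbf4, Dck and Orc5 lie on chromosome 5.

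Among the G1/S regulators, 8 of 24 rose in DMSO 16x against parental (33.3%, against 14.7% of all genes) and 4 fell (16.7%, near the 16.2% of all genes). Ccnd2, cyclin D2, stood at 504 CPM in the parental pair, 671 in DMSO 1x and 922 in DMSO 16x (0.87 ± 0.05, 4.24e-07), and E2f4 rose by 0.36 ± 0.05 (0.000147). Rb1, the retinoblastoma protein that restrains E2F, fell by 0.32 ± 0.06 (0.001) and Tfdp2 by 0.44 ± 0.10 (0.00793). At dasatinib 1x and 16x Ccnd2 stood at 597 and 783.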
